A study of Mus musculus with 6 samples.

Results

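The immunoglobulin heavy-chain variable segments, named Ighv, were described in bone marrow of mice given Onway and of untreated mice. They were chosen by their deposited TPM, an abundance per transcript length that is scaled to the same total in each library. A segment was included where its mean over the 6 libraries, with all transcripts of the gene summed, was at least 1 TPM. Of the 56496 genes in the deposited table, 183 were named Ighv, and 116 of them reached this minimum. The other 67 lay below it, and 42 of these were at 0 in every library. The minimum was set on the mean over both groups, so the levels that chose the segments are given as a description. Of the 116, 10 averaged at least 1 TPM in Onway alone and 2 in Control alone, so these entered through the group where they were higher. Just inside it were Ighv2-4 with a mean of 1.07 TPM, Ighv6-7 with 1.16 TPM and Ighv1-38 with 1.18 TPM, and just outside were Ighv1-83 with 0.95 TPM, Ighv1-56 with 0.92 TPM and Ighv14-2 with 0.833 TPM. The 116 segments held between 99.57% and 99.92% of all Ighv TPM of a library.

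RNA-seq was measured in 3 libraries from mice given Onway (Onway 1, 2 and 3) and 3 from untreated mice (Control 4, 5 and 6). All came from bone marrow of female BALB/c mice whose tumour of 4T1 cells, a mouse mammary carcinoma line, had been resected. Onway, of which the labels do not say what it contains, was given by gavage for 2 weeks, and its libraries carry the label day 14. The Control libraries carry day 0, so an effect of Onway and one of the labelled day cannot be told apart. Whether the libraries of a group are from separate mice is not stated either, and the p-values cover the spread among 3 libraries a group, which may be technical. The protocols also hold a passage on cells fed with dexamethasone, isobutylmethylxanthine and insulin, and its relation to these libraries is not stated.

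TPM keeps no read depth, so the depth of the libraries is unknown. The number of genes at 1 TPM or more was 13354 to 14252 per library. The marrow markers were present in every library: 8 neutrophil genes summed to between 102879 and 184256 TPM in Onway and between 94130.3 and 204401 TPM in Control libraries, with none of the 8 called. Haemoglobin genes took 13.35%, 9.38% and 33.87% of all TPM in Onway 1 to 3, against 26.55%, 11.63% and 18.27% in Control 4 to 6. All 5 megakaryocyte markers fell, with sums of 85.9 to 136.8 TPM in Onway, against 1795.4 to 2025.1 TPM in Control. All 5 skeletal muscle markers fell too, with sums of 6.0 to 12.2 TPM in Onway, against 443.7 to 2852.8 TPM in Control. The part of these shifts in the Ighv values was not tested.

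A heavy-chain variable region is assembled in developing B cells, when the RAG recombinase joins a V segment to a D and a J segment. A B cell as a rule makes its heavy chain from a single rearranged V segment, so the mix of Ighv transcripts in a tissue reflects which segments its B-lineage cells use. It also reflects how much immunoglobulin mRNA each cell holds, and plasma cells, the antibody-secreting cells that persist in bone marrow, hold far more of it than other B cells. In bulk marrow, a change in the number of such cells and a change in the RNA per cell cannot be told apart. Mouse V segments fall into families of similar sequence, among them Ighv1 (also called J558), the most numerous, and Ighv2 (also called Q52). Segments near the D segments, such as Ighv5-2, a member of the family at that end, are rearranged often in early B-cell development. The reference genome is that of C57BL/6 mice, whereas BALB/c mice carry another heavy-chain haplotype. A name here therefore stands for the reference segment to which the authors' processing assigned the reads.

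In GENCODE M21, an annotation of the build GRCm38, all 116 segments were found, on the minus strand of chromosome 12. The 185 annotated Ighv genes span chr12:113572927-116010093, or 2.44 Mb. Of the 116, 101 are annotated as variable genes and 15 as variable pseudogenes. Each consists of a leader exon and a variable exon or only part of these. The sequence used for each was the annotated coding part of its transcript. Where no coding part is annotated, the transcript was used, from an ATG near its 5′ end if there was one. These sequences were 294 to 402 bases long with a median of 351. The segments resembled each other closely: 60 of the 116 had another of the 116 at an identity of 95% or more, and 12 had one at 98% or more. The nearest relative was of the same family for 112 of them. Median identity was 84.5% within a family and 57.9% between families. A read from such a stretch may not tell the segments apart, so each single segment's level is uncertain to that degree.

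The sequences of 4 of the 5 segments past the test's threshold, and of the most abundant segment with its nearest relative, are shown to make that resemblance visible. Shown are the last 300 bases of the sequence used for each, from GENCODE M21, 5′ to 3′. They hold the variable exon or nearly all of it, and the coordinates are the gene's in GRCm38. Capitals mark bases that differ from the nearest relative among the 116.
Ighv5-2, chr12:113578504-113578990, minus strand, nearest Ighv5-6: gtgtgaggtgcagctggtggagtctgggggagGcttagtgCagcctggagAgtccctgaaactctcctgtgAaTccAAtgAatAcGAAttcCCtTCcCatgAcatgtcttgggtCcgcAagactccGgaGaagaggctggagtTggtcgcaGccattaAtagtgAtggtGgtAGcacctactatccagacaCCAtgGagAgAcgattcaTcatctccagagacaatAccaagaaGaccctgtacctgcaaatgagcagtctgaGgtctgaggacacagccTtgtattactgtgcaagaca
Ighv1-77, chr12:115861867-115862355, minus strand, nearest Ighv1-75: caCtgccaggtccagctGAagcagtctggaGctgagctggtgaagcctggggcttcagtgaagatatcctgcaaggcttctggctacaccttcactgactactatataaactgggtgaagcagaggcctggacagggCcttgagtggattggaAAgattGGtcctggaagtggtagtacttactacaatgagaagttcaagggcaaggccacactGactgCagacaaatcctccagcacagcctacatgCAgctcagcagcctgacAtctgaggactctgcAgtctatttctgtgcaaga
Ighv1-22, chr12:114746273-114746706, minus strand, nearest Ighv1-26: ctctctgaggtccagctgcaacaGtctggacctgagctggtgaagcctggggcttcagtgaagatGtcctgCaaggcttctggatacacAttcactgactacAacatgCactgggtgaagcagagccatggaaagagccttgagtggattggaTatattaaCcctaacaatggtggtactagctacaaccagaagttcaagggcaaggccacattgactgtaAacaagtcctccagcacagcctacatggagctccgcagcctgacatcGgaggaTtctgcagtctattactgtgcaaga
Ighv2-6-8, chr12:113796138-113796567, minus strand, nearest Ighv2-6: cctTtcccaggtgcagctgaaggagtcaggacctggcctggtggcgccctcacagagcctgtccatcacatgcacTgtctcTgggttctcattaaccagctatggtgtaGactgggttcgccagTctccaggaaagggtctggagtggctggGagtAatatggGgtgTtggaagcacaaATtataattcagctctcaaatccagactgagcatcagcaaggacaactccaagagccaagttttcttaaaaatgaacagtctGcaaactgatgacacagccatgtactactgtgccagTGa
Ighv4-2, chr12:114013144-114013606, minus strand, nearest Ighv4-1: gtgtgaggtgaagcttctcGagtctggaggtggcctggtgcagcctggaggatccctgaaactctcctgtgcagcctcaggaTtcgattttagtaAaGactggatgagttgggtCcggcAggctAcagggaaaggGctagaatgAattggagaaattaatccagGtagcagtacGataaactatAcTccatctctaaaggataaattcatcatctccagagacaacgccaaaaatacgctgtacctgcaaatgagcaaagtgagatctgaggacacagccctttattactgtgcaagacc
Ighv4-1, chr12:113948282-113948796, minus strand, nearest Ighv4-2: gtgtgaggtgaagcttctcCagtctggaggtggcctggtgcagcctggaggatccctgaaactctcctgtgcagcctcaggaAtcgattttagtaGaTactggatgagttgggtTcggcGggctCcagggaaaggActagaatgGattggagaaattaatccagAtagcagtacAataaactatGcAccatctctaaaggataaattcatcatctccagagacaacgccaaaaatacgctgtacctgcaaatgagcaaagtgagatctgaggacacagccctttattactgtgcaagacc
Ighv5-2 was the most distinct of the first 4, at 87.3% identity to Ighv5-6 with 45 differing bases. Ighv1-77 differed from Ighv1-75 at 18 of 351 bases, Ighv2-6-8 from Ighv2-6 at 18 of 350 and Ighv1-22 from Ighv1-26 at 12 of 351. Ighv4-2 and Ighv4-1 differed at 13 of 350 bases. These counts are over the whole sequence used for each. Of them, 40 for Ighv5-2, 15 for Ighv1-77, 14 for Ighv2-6-8, 11 for Ighv1-22 and 13 for Ighv4-2 lie within the 300 bases shown. The motif TGTGC, which holds the codon of the conserved cysteine at the end of the variable exon, was searched on the coding strand in the last 15 bases and was found in 91 of the 116 segments. The longer ending TGTGCAAGA, which contains that motif, closed 49 of them, including Ighv1-77 and Ighv1-22.

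Ighv transcripts were on average more abundant in the Onway libraries, but the groups overlapped. The 116 segments summed to 8311.3, 4043.2 and 4025.0 TPM in Onway 1, 2 and 3, against 5190.9, 1351.8 and 2030.6 TPM in Control 4, 5 and 6. Control 4 lay above Onway 2 and Onway 3, and Onway 1 was the highest of the 6. The means were 5459.8 ± 2469.5 TPM in Onway and 2857.8 ± 2048.9 TPM in Control (SD, n = 3 each), a ratio of 1.91 and a difference of 1.08 in mean log2 sum (exact permutation test, 20 ways to assign 6 libraries, two-sided p = 0.3, where the smallest possible p is 0.1). These sums were 0.831%, 0.404% and 0.403% of all TPM in the Onway libraries, against 0.519%, 0.135% and 0.203% in the Control libraries.

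A single segment, Ighv4-2, made up much of the sum of Control 4. Without it the sums were 8219.7, 3950.8 and 3963.6 TPM in Onway, against 3827.7, 1327.0 and 1960.2 TPM in Control, and every Onway library lay above every Control library. The ratio of means was then 2.27 and the log2 difference 1.23 (exact permutation test, p = 0.1, the smallest possible). Leaving this segment out was chosen after its values were seen.

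The authors' deposited table also holds a mean for each group into which a further value entered beyond the 3 libraries. From the authors' deposited table, summed Ighv was 4679.8 TPM in the Onway mean and 3043.6 TPM in the Control mean. Taking 4 times each mean less the 3 libraries leaves 2339.6 TPM as the further Onway value and 3601.1 TPM as the further Control value. The further Onway value lay below every Onway library, and the further Control value lay above the further Onway value. These values entered no test.

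**Figure D1:**
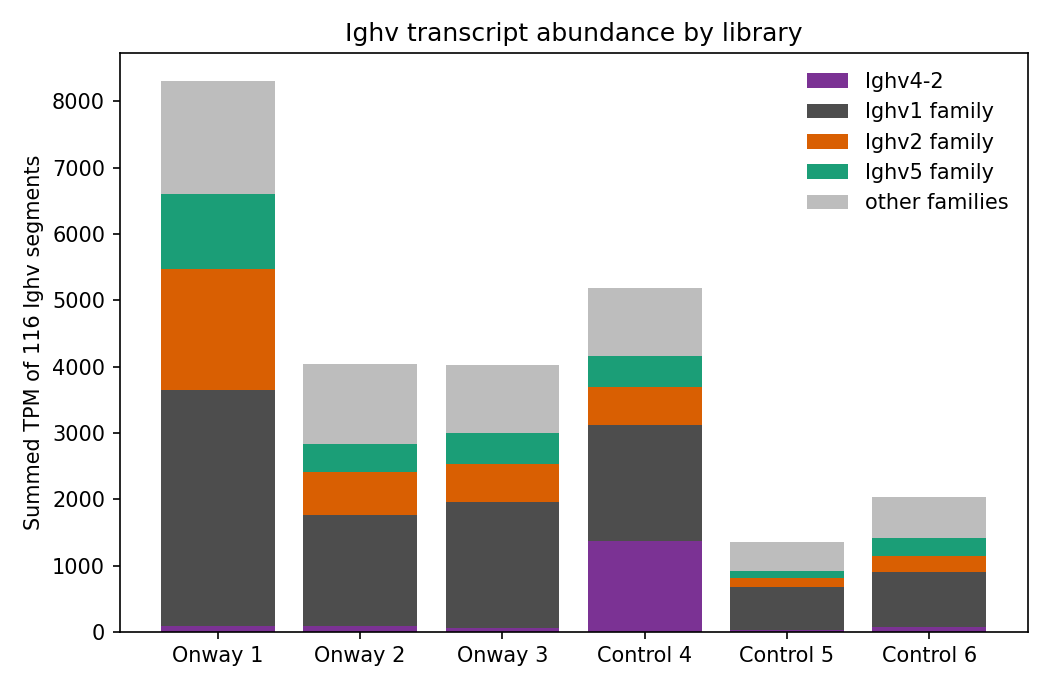
Summed TPM (vertical axis) of the 116 Ighv segments in each of the 6 libraries, Onway left and Control right, with bars divided into Ighv4-2, the Ighv1, Ighv2 and Ighv5 families and all other families. Onway 1 is the highest bar at 8311.3 TPM, and in Control 4 the block of Ighv4-2 alone is 1363.2 TPM.

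Other immunoglobulin and B-cell genes were higher on average in Onway as well, and none passed the threshold (limma on log2(TPM + 1), Benjamini-Hochberg adjusted p under 0.05). The 8 heavy-chain constant genes had positive log2 fold changes in 8 of 8 cases with a median of 1.04. They summed to 5651.7, 2593.8 and 2959.4 TPM in Onway, against 3120.9, 953.2 and 1298.7 TPM in Control. Ighm, the IgM constant gene, had 632.3, 1179.8 and 1044.8 TPM in Onway, against 1141.7, 389.2 and 391.9 TPM in Control, so the groups overlapped (adjusted p = 0.591). Ighd, the IgD constant gene of mature naive B cells, had 13.1, 18.0 and 77.6 TPM in Onway, against 10.8, 3.09 and 4.50 TPM in Control. Every Onway library was above every Control library, with Onway 3 far above the rest (log2 fold change 2.10, SE 0.76, adjusted p = 0.309). Ighg1, the IgG1 constant gene, named after its values were seen, had 3669.1, 455.8 and 539.5 TPM in Onway, against 885.1, 173.3 and 188.1 TPM in Control, with Onway 1 far above the other 5 libraries.

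The 5 light-chain constant and J chain genes had positive log2 fold changes too, with none past the threshold. Igkc, the kappa light-chain constant gene, had 3281.2, 1257.8 and 1557.3 TPM in Onway, against 1909.3, 499.1 and 707.5 TPM in Control, with Control 4 above Onway 2 and Onway 3 (adjusted p = 0.514). Jchain, which joins IgM and IgA into polymers and marks plasma cells, had 520.7, 319.3 and 385.4 TPM in Onway, against 376.3, 131.9 and 210.5 TPM in Control (adjusted p = 0.406). For both genes the order of libraries had the same features as the Ighv sums, with Onway 1 highest and Control 5 lowest.

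B-lineage markers ordered the libraries differently from the Ighv sums. The 9 genes listed as B-lineage markers summed to 353.0, 862.9 and 1087.6 TPM in Onway, against 368.5, 205.5 and 255.9 TPM in Control. Onway 1, the highest library for Ighv, was thus below Control 4 in this sum. Cd74 was the largest part of the sum in every library. It had 189.4, 314.9 and 489.8 TPM in Onway, against 179.2, 75.1 and 139.1 TPM in Control. None of the 9 passed the threshold, although 9 of 9 log2 fold changes were positive, with a median of 1.36. The 10 plasma cell genes, of which 8 were tested and 0 called, summed to 706.0, 537.1 and 553.7 TPM in Onway, against 521.1, 295.1 and 337.4 TPM in Control, and the groups did not overlap. Of the 8 tested, 7 had positive log2 fold changes, with a median of 0.87. Jchain, described above and overlapping between the groups, made up much of these sums. Its part ran from 131.9 of 295.1 TPM in Control 5 to 520.7 of 706.0 TPM in Onway 1. The 11 pre-B genes, which include the recombinase genes Rag1 and Rag2 and the surrogate light chain, summed to 221.3, 477.9 and 467.4 TPM in Onway, against 185.3, 333.4 and 166.9 TPM in Control, with 10 of 11 log2 fold changes positive and 0 called. Of the 9 genes that act with RAG in V(D)J joining, such as the end-joining genes, 7 had positive log2 fold changes with a median of 0.15, and 0 were called. The 7 T-cell genes had positive log2 fold changes in 7 of 7 cases with a median of 0.73, and 0 were called. The part of these cell markers in the Ighv values was not tested.

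Among the 116 segments, 5 were higher in Onway at the adjusted threshold, or 4.31%, and 0 were lower. The background was 0.233% of all 14192 tested genes higher and 2.99% lower. At an unadjusted p under 0.05, 37 segments were higher, or 31.9%, where 4.95% of all tested genes were, and 1 was lower, where 8.42% of all were. The log2 fold change was positive for 105 of 116 segments, or 90.5%, against 53.6% of all tested genes, and the median was 0.98 over the segments and 0.03 over all tested genes. Every Onway library was above every Control library for 34 segments, or 29.3%, where 6.96% of all tested genes behaved so. The reverse held for 1 segment, Ighv13-2, where 11.5% of all tested genes behaved so. The segments are measured in the same 6 libraries and share their B cells, so these counts are not independent of each other. The counts also include the 10 segments that reached the minimum through Onway alone, all with positive log2 fold changes. Ighv5-2, which is among the 5 called, is one of these. The 2 segments that reached it through Control alone had negative log2 fold changes. The counts are therefore given as a description.

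**Figure D2:**
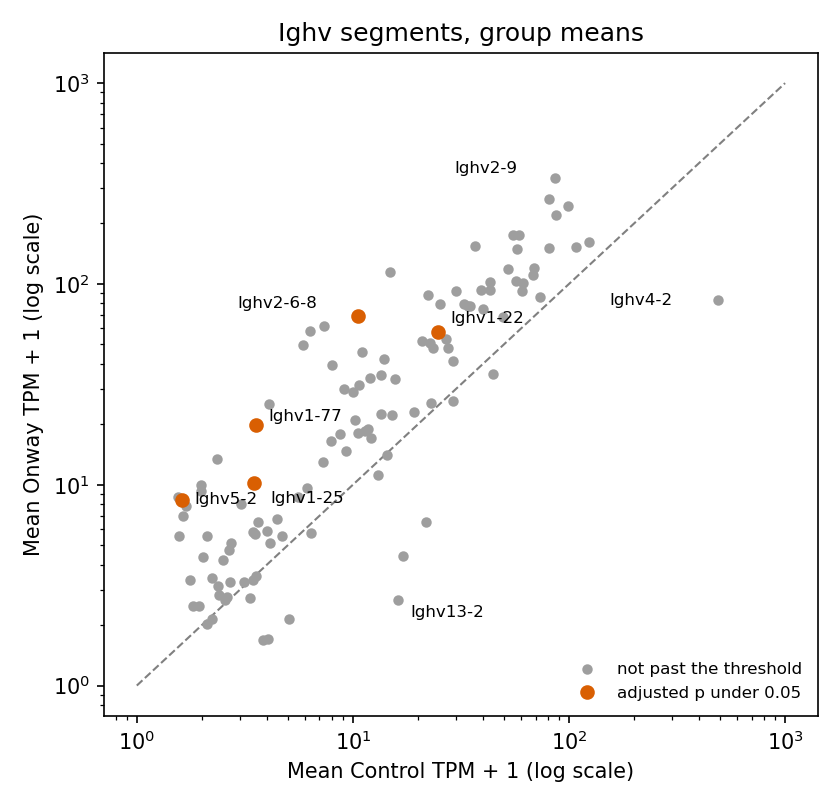
Mean TPM + 1 of the 116 segments in Onway (vertical axis, log scale) against Control (horizontal axis, log scale), where each point is a segment, the dashed line marks equal means and coloured points had an adjusted p under 0.05. Most points lie above the line, and Ighv4-2 and Ighv13-2 are labelled below it.

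Relative to the Ighv sum, fewer segments differed. When the segments of each library were rescaled to a common Ighv sum, so that shares within Ighv were compared, 62 of 116 log2 fold changes were positive, the median was 0.06 and 2 segments passed the threshold. These were Ighv1-77 (adjusted p = 0.0043) and Ighv5-2 (adjusted p = 0.028). The Ighv sum included Ighv4-2, which held 26.26% of it in Control 4. That lowered the rescaled values and the shares of all other segments in Control 4, so the counts in this paragraph depend on it. Shares of summed Ighv TPM did not overlap for 16 segments, with Onway above Control for 11, or 9.48%, and below for 5, or 4.31%. The corresponding background in TPM was 6.96% and 11.5% of all tested genes, so these shares of segments are near it or under it and are no result about the segments.

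Ighv5-2, the D-proximal segment long studied as 81X, lies at chr12:113578504-113578990, 5.6 kb from the most D-proximal annotated segment. It had 10.25, 6.50 and 5.55 TPM in Onway, against 0.95, 0 and 0.89 TPM in Control. The lowest Onway library was far above the highest Control library. Its log2 fold change was 2.41 (SE 0.33, adjusted p = 0.0079), on a scale that understates low values. With means of 7.43 ± 2.48 TPM in Onway and 0.613 ± 0.532 TPM in Control (SD, n = 3 each), Ighv5-2 reached the minimum for inclusion through Onway, and its count among the segments called is no support for them. Its share of Ighv TPM was 0.141 ± 0.019% in Onway and 0.021 ± 0.022% in Control (SD, n = 3 each). In the authors' deposited table the mean of Ighv5-2 was 5.89 TPM in Onway and 6.88 TPM in Control, so the order was turned, which leaves 25.7 TPM as the further Control value and 1.26 TPM as the further Onway value.

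Ighv1-77 lies near the other end of the locus, at chr12:115861867-115862355. It had 28.34, 15.06 and 12.83 TPM in Onway, against 3.83, 1.43 and 2.37 TPM in Control. Onway 1 was the highest, and the groups did not overlap. Its log2 fold change was 2.45 (SE 0.36, adjusted p = 0.011), and the share was 0.344 ± 0.027% in Onway and 0.099 ± 0.022% in Control (SD, n = 3 each). From the authors' deposited table, the further values were 7.01 TPM for Onway and 6.6 TPM for Control.

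Ighv1-22, at chr12:114746273-114746706, was the steadiest of the 5 among the Onway libraries. It had 57.23, 59.39 and 53.69 TPM in Onway, against 31.18, 20.79 and 19.02 TPM in Control. The 3 Onway libraries were close together and all above Control. The log2 fold change was 1.26 (SE 0.21, adjusted p = 0.0185). Its share of Ighv TPM, in contrast, was 1.16 ± 0.417% in Onway and 1.02 ± 0.475% in Control (SD, n = 3 each), and the shares overlapped. From the authors' deposited table, the further values of Ighv1-22 were 41.67 TPM for Onway, below every Onway library, and 75.66 TPM for Control, above every Onway library.

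Ighv1-25 is annotated as a pseudogene. It had 7.77, 12.83 and 7.13 TPM in Onway, against 3.96, 1.79 and 1.68 TPM in Control, with Onway 2 the highest. The groups did not overlap in TPM, and they overlapped in share. The log2 fold change was 1.58 (SE 0.32, adjusted p = 0.042).

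Ighv2-6-8, at chr12:113796138-113796567, had the largest log2 fold change of the 5. It had 125.08, 39.83 and 39.35 TPM in Onway, against 11.83, 8.82 and 7.94 TPM in Control. Onway 1 was far above the other Onway libraries, and all 3 were above Control. The log2 fold change was 2.51 (SE 0.46, adjusted p = 0.043), and the share was 1.16 ± 0.302% in Onway and 0.424 ± 0.214% in Control (SD, n = 3 each). From the authors' deposited table, the further values of Ighv2-6-8 were 31.88 TPM for Onway and 31.74 TPM for Control.

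**Figure D3:**
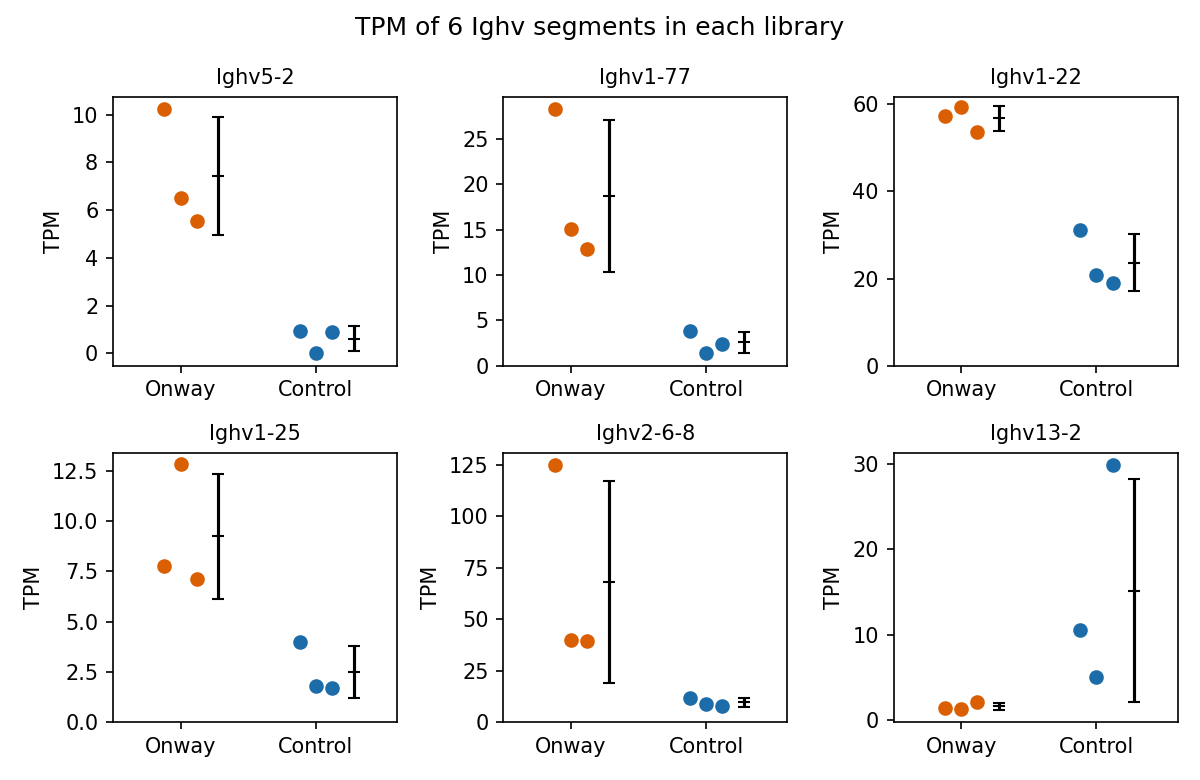
TPM (vertical axis) of the 5 segments past the threshold and of Ighv13-2 in each library, Onway left and Control right, where points are libraries and black marks are the mean with its SD (n = 3 each). The groups do not overlap in any of the 6 panels, and Ighv13-2 is the panel in which Onway is the lower group.

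These calls depended on single libraries and settings. Without Onway 2, none of the 5 kept an adjusted p under 0.05: the values were 0.0551 for Ighv5-2, 0.0603 for Ighv1-77, 0.0929 for Ighv1-22, 0.15 for Ighv1-25 and 0.0815 for Ighv2-6-8. The log2 fold changes were then 2.47, 2.56, 1.23, 1.34 and 2.78 in the same order, with 2 Onway libraries left. Ighv1-77 kept its call in every other setting tried. Ighv5-2 also lost its call with a pseudocount of 0.1 TPM (adjusted p = 0.102), and it was not tested at a minimum mean of 5 TPM, which it does not reach. Ighv1-22 also lost its call without Onway 1 (0.0586), Onway 3 (0.0597) or Control 6 (0.0731), with Ensembl transcripts alone (0.353) and after rescaling (0.886). Its log2 fold change was 0.48 with Ensembl transcripts alone and 0.21 after rescaling. Ighv1-25 and Ighv2-6-8 lost theirs in most settings, including a minimum mean of 5 TPM (0.068 for Ighv1-25 and 0.0578 for Ighv2-6-8), without Control 5 (0.0949 for Ighv1-25 and 0.148 for Ighv2-6-8) and without Control 6 (0.126 for Ighv1-25 and 0.154 for Ighv2-6-8).

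Ighv1-74 came closest to the threshold without passing it, and is named after its values were seen. It had 80.12, 115.49 and 80.95 TPM in Onway, against 47.76, 31.01 and 46.87 TPM in Control. The groups did not overlap (log2 fold change 1.12, SE 0.24, adjusted p = 0.052). Whether it passed depended on the setting. The adjusted p was 0.0454 with a pseudocount of 0.1 TPM, 0.0274 with median-centred libraries and 0.0075 with Ensembl transcripts alone. It was 0.0437 without Control 4 and Onway 1. In the other settings it did not pass, including every fit with 1 library left out, and after rescaling the adjusted p was 0.978.

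Ighv13-2, at chr12:114357759-114358218, was the only segment with every Onway library below every Control library. It had 1.46, 1.38 and 2.13 TPM in Onway, against 10.54, 5.08 and 29.85 TPM in Control. Control 6 was the highest and the Control values spread widely. It had a log2 fold change of -2.29 (SE 0.57), and it did not pass the threshold (adjusted p = 0.124), although it did without Control 5 (adjusted p = 0.0126). It is the only included segment of its family, and its share was 0.035 ± 0.018% in Onway and 0.683 ± 0.687% in Control (SD, n = 3 each). From the authors' deposited table, its further values were 0 TPM for Onway and 12.01 TPM for Control.

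The levels of the segments spread over more than 2 orders of magnitude. Mean levels ran between 1.07 and 283.95 TPM with a median of 14.4 TPM, 70 segments averaged at least 10 TPM and 11 averaged at least 100 TPM. A signal was present in all 6 libraries for 95 of the 116 segments. Levels across the 116 segments were alike between libraries: Pearson's r of log2(TPM + 1) was 0.812 to 0.891 between Onway libraries, 0.780 to 0.821 between Control libraries and 0.743 to 0.894 between the groups. These correlations are over segments, which are not independent, and share the segments' lengths and sequences.

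Besides Ighv4-2, the most abundant segments by mean were Ighv2-9, Ighv14-3, Ighv2-5 and Ighv1-19, and their levels mostly followed the sums. Ighv2-9 had 694.77, 184.02 and 134.67 TPM in Onway, against 139.24, 53.75 and 61.87 TPM in Control, with Onway 1 the highest and Control 4 just above Onway 3 (adjusted p = 0.377). Ighv14-3 had 492.39, 173.20 and 124.27 TPM in Onway, against 143.07, 43.70 and 52.67 TPM in Control (adjusted p = 0.366). Control 4 again lay above Onway 3. Ighv1-19 had 394.57, 129.22 and 136.45 TPM in Onway, against 128.20, 59.07 and 70.72 TPM in Control. The groups did not overlap, with Control 4 just below Onway 2, and the adjusted p was 0.373. Ighv2-5 had 395.09, 176.94 and 158.96 TPM in Onway, against 192.20, 32.36 and 70.04 TPM in Control, with overlap (adjusted p = 0.435).

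The next segments by mean level kept this pattern, with Onway 1 highest in every case and none past the threshold. Ighv1-64 had 240.59, 119.13 and 120.84 TPM in Onway, against 231.32, 54.18 and 83.67 TPM in Control. Its share was lower in all Onway libraries, at 2.95 ± 0.054% in Onway and 4.195 ± 0.233% in Control (SD, n = 3 each). Ighv2-9-1 had 296.71, 89.97 and 134.93 TPM in Onway, against 96.18, 27.00 and 38.75 TPM in Control, and its share was higher in all Onway libraries, at 3.05 ± 0.722% in Onway and 1.92 ± 0.073% in Control. That order depended on Ighv4-2, which enlarged the Control 4 sum. Without Ighv4-2 in the sums, Ighv2-9-1 held 96.18 of 3827.7 TPM in Control 4 and 89.97 of 3950.8 TPM in Onway 2. The Control 4 share was then the larger of these. Ighv5-4 had 231.36, 134.53 and 86.70 TPM in Onway, against 174.03, 23.42 and 122.33 TPM in Control, with overlap. Ighv5-12 (318.64, 87.90 and 118.24 TPM in Onway, against 78.07, 34.71 and 59.95 TPM in Control) and Ighv1-5 (295.30, 75.87 and 88.35 TPM in Onway, against 52.75, 28.35 and 26.30 TPM in Control) did not overlap between the groups. Neither did Ighv1-14, a pseudogene by annotation, with 169.94, 107.79 and 165.90 TPM in Onway, against 102.33, 22.53 and 43.97 TPM in Control. Ighv1-34 had 223.24, 94.61 and 134.17 TPM in Onway, against 151.74, 56.88 and 31.13 TPM in Control, and overlapped. Of all 116 segments, 58 were highest in Onway 1, and among the Control libraries 76 were highest in Control 4.

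Ighv4-2 was the most abundant segment by mean, at 283.95 TPM, through 1 library. It had 91.57, 92.36 and 61.39 TPM in Onway, against 1363.15, 24.83 and 70.40 TPM in Control. Control 4 was far above the other 5 libraries, and the rest of both groups overlapped (log2 fold change -0.74, SE 1.51, adjusted p = 0.892). It held 26.26% of Ighv TPM in Control 4, and between 1.10% and 3.47% in the other 5 libraries. Its further values from the authors' deposited table were 63.82 TPM for Onway and 67.63 TPM for Control, near the other 5 libraries. The annotation calls Ighv4-2 a pseudogene, and its reference sequence holds an in-frame TGA at base 193, counted from the ATG. The last base of that codon is among the 13 that differ from Ighv4-1, in whose sequence no in-frame stop was found.

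Other segments were also highest in Control 4. Ighv4-1, named as the nearest relative, had 2.0, 6.28 and 2.0 TPM in Onway, against 44.7, 0.77 and 2.95 TPM in Control. Ighv1-72, used in C57BL/6 responses to the hapten NP, had 5.30, 7.62 and 3.72 TPM in Onway, against 59.20, 2.05 and 1.16 TPM in Control. In both, Control 4 alone stood above the rest. The kappa light-chain segment Igkv1-88, looked up after these values were seen, had 134.7, 86.5 and 127.6 TPM in Onway, against 2377.5, 24.6 and 14.1 TPM in Control. It held 21.38% of kappa variable TPM in Control 4, against 0.85%, 1.15% and 1.53% in the Onway libraries and 1.01% and 0.38% in the other Control libraries. On TPM + 1, Control 4 exceeded the highest other library 17.5-fold for Igkv1-88 and 14.6-fold for Ighv4-2, the largest such ratio among kappa segments and among heavy-chain segments. The next ratios were 3.93 for Igkv4-86 and 6.98 for Ighv1-72.

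The leading segment differed between libraries. Ighv2-9 led in Onway 1 with 8.36% and in Onway 2 with 4.55% of Ighv TPM, and Ighv1-14 led in Onway 3 with 4.12%. Ighv4-2 led in Control 4 with 26.26%, Ighv9-3 in Control 5 with 4.55% and Ighv5-4 in Control 6 with 6.02%. The 13, 17 and 17 most abundant segments held 50% of Ighv TPM in Onway 1 to 3, against 9, 17 and 16 in Control 4 to 6. For 90% it took 46, 51 and 54 segments in Onway, against 42, 56 and 50 in Control.

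Evenness was summarised by the effective number of segments, the number of equally abundant segments that would have the same Shannon entropy. It was 50.0, 59.8 and 62.5 in Onway, against 33.2, 61.6 and 56.9 in Control, and Control 4 was the lowest. The means were 57.4 ± 6.58 in Onway and 50.6 ± 15.2 in Control (SD, n = 3 each, exact permutation test, p = 0.6). Without Ighv4-2 the Control 4 value was 53.0, and the means were 56.5 ± 6.53 in Onway and 56.7 ± 3.83 in Control (exact permutation test, p = 1.0).

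By family, Ighv1 held the largest share in every library. Its 59 included segments made up 42.7%, 41.3% and 47.1% of Ighv TPM in Onway, against 33.9%, 48.1% and 40.7% in Control, with overlap (exact permutation test, p = 0.6). Of the 59, 53 had positive log2 fold changes, 21 had Onway above Control in every library and 3 were called. Over all tested genes these were 53.6%, 6.96% and, for calls higher in Onway, 0.233%. The 9 segments of Ighv2 made up 22.0%, 16.1% and 14.3% in Onway, against 11.1%, 10.6% and 11.99% in Control. Every Onway library was above every Control library, with Onway 1 the highest. The mean share of Ighv2 was 17.5 ± 4.03% in Onway and 11.2 ± 0.703% in Control (SD, n = 3 each), a difference of 6.23 percentage points (exact permutation test, p = 0.1, the smallest possible, and 0.4 adjusted over the 6 families with a mean share of at least 5%). With the most abundant segment of each library left out, the difference was 0.99 percentage points (exact permutation test, p = 0.7). That removes Ighv2-9 from Onway 1 and Onway 2 alone, and Ighv4-2 from Control 4 alone. Without Onway 1 the difference was 3.97 percentage points. The separation also depended on Ighv4-2, which took 26.26% of the Control 4 sum. Without Ighv4-2 in the sums, Ighv2 held 576.0 of 3827.7 TPM in Control 4 and 574.4 of 3963.6 TPM in Onway 3. The Control 4 share was then the larger, so the groups overlapped. The Ighv2 share of the further values from the authors' deposited table was 18.4% for Onway and 20.1% for Control, so the further Control value lay above Onway 2 and Onway 3. All 9 segments had positive log2 fold changes, with a median of 1.68, where 53.6% of all tested genes were positive. In TPM, 1 of the 9 had every Onway library above every Control library, and 1 was called. The shares over all tested genes were 6.96% and 0.233%.

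The 4 other families of that size overlapped between the groups. Ighv5 held 13.7%, 10.3% and 11.5% in Onway, against 9.03%, 7.53% and 13.7% in Control (exact permutation test, p = 0.4). In TPM, 6 of its 9 segments had Onway above Control in every library, where 6.96% of all tested genes did. Ighv14 held 8.32%, 6.19% and 5.53% in Onway, against 4.35%, 5.62% and 4.19% in Control (exact permutation test, p = 0.2). Ighv9 held 2.15%, 7.45% and 3.54% in Onway, against 3.70%, 9.78% and 6.55% in Control (exact permutation test, p = 0.4), with Onway 1 the lowest. Ighv4, with Ighv4-1 and Ighv4-2, held 1.13%, 2.44% and 1.58% in Onway, against 27.1%, 1.89% and 3.61% in Control (exact permutation test, p = 0.2).

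**Figure D4:**
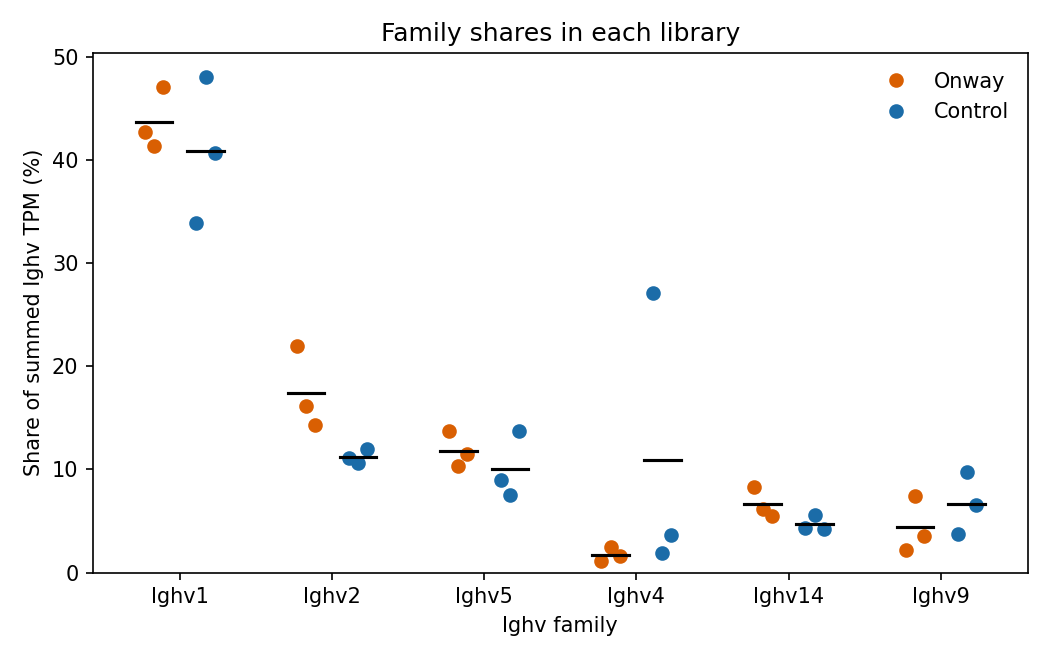
Share of summed Ighv TPM in percent (vertical axis) of the 6 families with a mean share of at least 5%, where each point is a library, Onway left and Control right within a family, and black lines are group means. Ighv2 is the family whose Onway points, at 14.3% to 22.0%, all lie above its Control points, and 1 Control point of Ighv4 lies at 27.1%.

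The small families held little of the total, and 2 of them did not overlap in share. Ighv13, with Ighv13-2 alone, is described above. Ighv15, with Ighv15-2 alone, held 0.098 ± 0.050% in Onway and 0.201 ± 0.074% in Control (SD, n = 3 each, exact permutation test, p = 0.1, the smallest possible). The highest Onway share, 0.154% in Onway 2, was barely under the lowest Control share, 0.157% in Control 5. The TPM of Ighv15-2 overlapped, at 4.82, 6.24 and 3.23 in Onway, against 8.27, 2.12 and 5.82 in Control. Ighv7 held 1.97%, 3.24% and 4.81% in Onway, against 2.24%, 5.70% and 6.20% in Control, Ighv8 held 3.22%, 3.54% and 4.66% in Onway, against 3.70%, 4.76% and 3.69% in Control, and Ighv3 held 2.98%, 4.57% and 4.11% in Onway, against 1.596%, 2.86% and 5.36% in Control. All 3 overlapped. The Ighv6, Ighv10, Ighv11 and Ighv12 families each held under 2% of Ighv TPM in every library.

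The leading segments of the remaining families gave a mixed picture, with Ighv9 among them. Ighv3-6 had 144.82, 59.51 and 68.45 TPM in Onway, against 45.36, 11.71 and 29.87 TPM in Control. Its share was 1.64 ± 0.146% in Onway and 1.07 ± 0.347% in Control (SD, n = 3 each, adjusted p of its TPM = 0.265). The lowest Onway share, 1.472% in Onway 2, barely exceeded the highest Control share, 1.471% in Control 6. Without Ighv4-2 in the sums, Ighv3-6 held 29.87 of 1960.2 TPM in Control 6 and 59.51 of 3950.8 TPM in Onway 2. The Control 6 share was then the larger of these. Ighv6-6 had 40.84, 25.98 and 24.73 TPM in Onway, against 18.61, 5.33 and 5.08 TPM in Control. It did not overlap in TPM or in share (adjusted p = 0.171). Ighv9-3, the leader of Control 5, had 58.59, 130.19 and 66.44 TPM in Onway, against 97.51, 61.53 and 59.08 TPM in Control, and overlapped (adjusted p = 0.886). Ighv7-4 had 110.66, 62.84 and 127.30 TPM in Onway, against 64.74, 46.69 and 69.60 TPM in Control, and overlapped. Ighv8-8 had 155.57, 84.81 and 90.65 TPM in Onway, against 135.12, 34.79 and 32.06 TPM in Control, and Ighv10-3 had 49.05, 73.77 and 30.43 TPM in Onway, against 36.38, 5.99 and 17.21 TPM in Control. In both, Control 4 lay within the range of Onway.

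Segments known for antibodies of B-1 cells, an innate-like B-cell population, varied between libraries. Ighv11-2, used against phosphatidylcholine, had 8.92, 43.03 and 23.31 TPM in Onway, against 70.83, 5.46 and 7.86 TPM in Control (adjusted p = 0.911), with Control 4 the highest. Ighv12-3, used against the same antigen, had 0.51, 9.13 and 10.82 TPM in Onway, against 0, 1.66 and 0.39 TPM in Control. Onway 1 lay among the Control libraries for Ighv12-3, and the adjusted p was 0.443. It was 0.0182 without Onway 1, the lowest Onway library for this segment. With means of 6.82 TPM in Onway and 0.683 TPM in Control, Ighv12-3 reached the minimum for inclusion through Onway alone. Neither value is therefore support for a difference. Ighv7-1, the segment of the T15 antibodies to phosphorylcholine, had 9.79, 43.76 and 12.37 TPM in Onway, against 29.39, 15.18 and 9.98 TPM in Control, and overlapped. Ighv6-3 had 29.63, 20.53 and 13.61 TPM in Onway, against 20.41, 12.73 and 9.13 TPM in Control, and overlapped.

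Along the locus, positive log2 fold changes were found from end to end. The annotated segments were divided by their order into 3 parts of about equal number, beginning at the D segments. The proximal part held 52.0%, 50.4% and 45.6% of Ighv TPM in Onway, against 60.3%, 44.2% and 51.2% in Control (exact permutation test, p = 0.8). It includes Ighv4-2, which alone held 26.26% of Ighv TPM in Control 4. The shares of all 3 parts in that library therefore depended on this segment, and no conclusion on their order is drawn. The distal part held 22.2 ± 2.15% in Onway and 22.7 ± 3.34% in Control (SD, n = 3 each, exact permutation test, p = 1.0). Median log2 fold changes were 1.28 over the 39 included segments of the proximal part, 1.05 over the 37 of the middle part and 0.87 over the 40 of the distal part. The calls numbered 2, 2 and 1 in that order, where 0.233% of all tested genes were called higher.

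**Figure D5:**
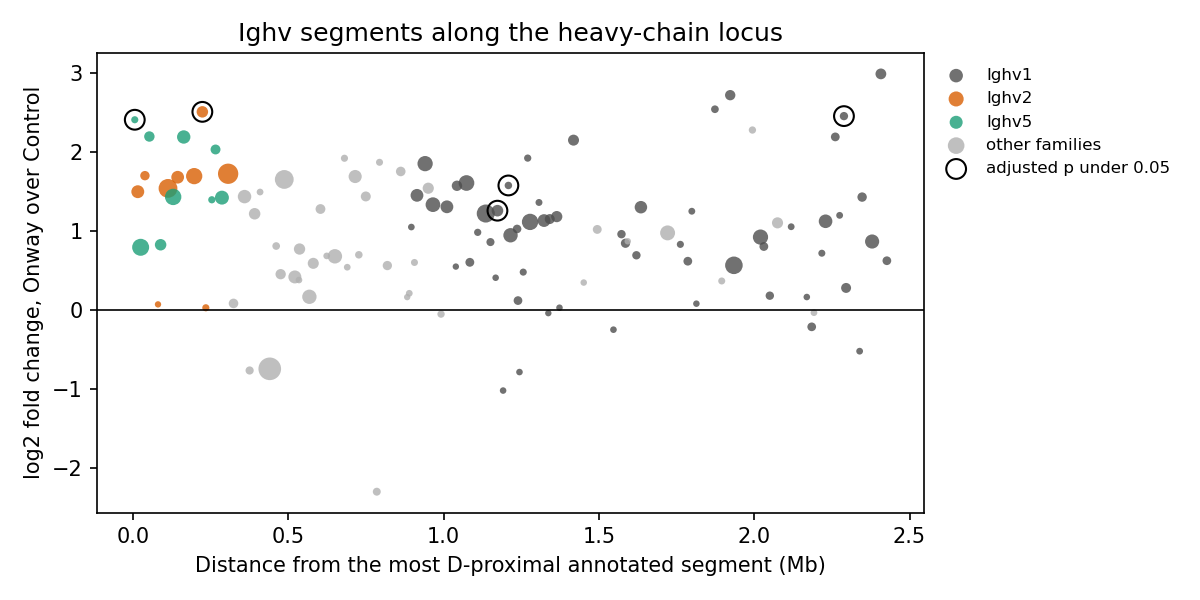
Log2 fold change of Onway over Control (vertical axis) of the 116 segments by distance from the most D-proximal annotated segment in Mb (horizontal axis), where each point is a segment, its area grows with mean TPM, colours give the family and black rings mark an adjusted p under 0.05. Points above 0 run along the whole 2.44 Mb, and the 5 ringed segments lie in both ends and the middle.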

How the data were processed

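RNA-seq libraries were made from bone marrow with a SMARTER mRNA kit after RNeasy isolation, per the labels' protocols. The submitters' processing notes name GRCm38 and mm10. The sources used here name neither aligner nor quantifier. The authors deposited TPM for 158850 transcripts, 294 of them named Ighv. Of these, 59 carry MSTRG identifiers, which mark newly assembled transcripts, and they held 34.7% to 54.1% of a library's Ighv TPM. Onway columns carry another prefix than the titles and were matched by number. The authors also deposited group means in TPM.

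TPM was summed per gene, and 14192 genes averaging 1 TPM or more were tested as log2(TPM + 1) with limma 3.58.1 in R 4.3.3, with a mean-variance trend and robust moderation. The test was two-sided, with Benjamini-Hochberg adjustment over all tested genes and a threshold of 0.05, and was tested on simulated data. Fold changes understate the change of low segments. Sums and shares used exact permutation tests. Sequences came from GENCODE M21 and were aligned with Biopython 1.88. The sequence of 1 segment is not reported here.

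Named segments were those past the threshold, the 12 highest by mean, each family's highest, each library's leader and a panel of 8. The segments and lists were chosen with earlier results of these data known.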

Additional observations from a re-analysis of the deposited data

How the results depend on the processing

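The count of 5 segments higher in Onway was 4 to 6 with a pseudocount of 0.1 TPM, without robust moderation, with median-centred libraries and with Ensembl transcripts alone. It was 3 with a pseudocount of 5 TPM, 3 with no filter on low values, 2 with a minimum mean of 5 TPM and 2 after rescaling to a common Ighv sum. Leaving out 1 library gave 2 to 11 (2 without Onway 2 or Onway 3, 11 without Control 4). It was 8 without Control 4 and Onway 3, and 28 without Control 4 and Onway 1, a setting chosen after seeing the data. The count lower was 0 to 1 (1 without Control 5, Ighv13-2).

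The log2 difference of the Ighv sums was 0.66 to 1.63 when 1 library was left out, and remained positive in every setting tried. The Ighv1 share difference of 2.83 percentage points reversed to -1.63 with the most abundant segment of each library left out, to -1.26 without Ighv4-2 and to -0.17 without Control 4 and Onway 1, and was -0.67 to 6.42 when 1 library was left out. The Ighv2 difference of 6.23 percentage points was 0.99 with the most abundant segment of each library left out and 3.97 to 7.83 when 1 library was left out, lowest without Onway 1. The Ighv4 difference of -9.16 was -0.52 with the most abundant segments left out and -1.04 without Control 4. The effective number difference of 6.81 reversed to -0.19 without Ighv4-2, and was -1.86 to 12.3 when 1 library was left out, negative without Control 4.

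Log2 fold changes of named segments also changed sign, each with an adjusted p above 0.05 where the sign had changed. After rescaling they were -0.50 for Ighv1-64, -0.50 for Ighv11-2, -0.27 for Ighv5-4, -0.46 for Ighv6-3, -0.92 for Ighv7-1, -0.39 for Ighv7-4, -0.086 for Ighv8-8 and -0.90 for Ighv9-3. With 1 library left out, or Control 4 together with Onway 1 or Onway 3, the log2 fold changes ran between -1.09 and 1.52 for Ighv1-72, -0.20 and 2.11 for Ighv11-2, -0.50 and 0.49 for Ighv15-2, -1.94 and 1.11 for Ighv4-2, -0.067 and 1.69 for Ighv5-4, -0.55 and 0.88 for Ighv7-1 and -0.18 and 0.62 for Ighv9-3. The cause of these changes was not tested.

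No paired analysis was possible because the groups share no replicate numbers. TPM gives no depth, so the counting error of segments near 1 TPM is unknown. With 3 libraries a group, the exact permutation test cannot go below p = 0.1. Reads shared between near-identical segments and reads of BALB/c alleles were not examined here.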
